A study of Homo sapiens with 30 samples.

Results

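The 9 Notch receptor and ligand genes, NOTCH1, NOTCH2, NOTCH3, NOTCH4, DLL1, DLL3, DLL4, JAG1 and JAG2, were examined for peaks of RING1 and RNF2, the paralogous ubiquitin ligases of Polycomb repressive complex 1, in human neural progenitor cells. The genes were chosen by name, as 9 of 20037 protein-coding genes, and every peak that met the gene body or the 2 kb on either side was taken. The libraries are CUT&RUN, in which a nuclease tethered to an antibody releases the DNA around the bound protein. They came from wild-type neural progenitor monolayers of the established H9 line, which is of human embryonic stem cell origin, grown in N2/B27/FGF medium, with 2 libraries against RING1 and 2 against RNF2. The series as a whole has 30 libraries of 5 genotypes, all on H9, and the edited genotypes, the IgG controls and the H2AK119ub1 libraries were not analysed here. The 4 peak lists form pairs, set A and set B, each with 1 RING1 and 1 RNF2 list. The labels do not tie a set to a replicate number or say whether the replicates were separate cultures, and all come from 1 cell line.

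Notch signalling runs between touching cells. A Delta-like or Jagged ligand on one cell binds a Notch receptor on its neighbour, proteases then cut the receptor, and its intracellular part enters the nucleus, where it joins RBPJ and Mastermind to switch on target genes of the HES and HEY families. In neural progenitors this holds cells in the progenitor state and delays neuronal differentiation, while cells that express ligand move on to become neurons. Polycomb repressive complex 1 marks chromatin by adding ubiquitin to histone H2A, mostly at CG-rich promoters of developmental genes. A peak here is a place where the authors' peak caller found signal over background. It says nothing of how strongly the gene was expressed, and expression was not measured in these files, so the cell type could not be checked against expressed markers.

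Both proteins were called at the same 6 genes in set A, and RNF2 was called again in set B at 5 of them. RING1 of set A had peaks at NOTCH1, NOTCH3, DLL3, DLL4, JAG1 and JAG2, 6 of 9 members (66.7%), where 50.5% of all protein-coding genes had one. RNF2 of set A had peaks at the same 6, against 60.7% of all genes, and 47.5% of all genes had both. RNF2 of set B had peaks at NOTCH1, DLL3, DLL4, JAG1 and JAG2, 5 of 9 (55.6%), against 25.2% of all genes. RING1 of set B, a list of only 659 peaks, had none at any of the 9, and 1.58% of all genes had one. With 9 genes, the set A shares lie close to those of all genes, and the RNF2 set B share lies further above its own. No test of the group was run, and the peak caller's lists carry no counts from which one could be made for single genes. RNF2 in both sets was found at 5 members and at 23.9% of all genes. These 5 members had RNF2 in both sets with RING1 of set A alone, as did 20.4% of all genes, and none of the 9 was in all 4 lists (1.52% of all genes). NOTCH2, NOTCH4 and DLL1 had no listed peak in any of the 4 lists, as was the case for 35.3% of all genes.

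**Figure D1:**
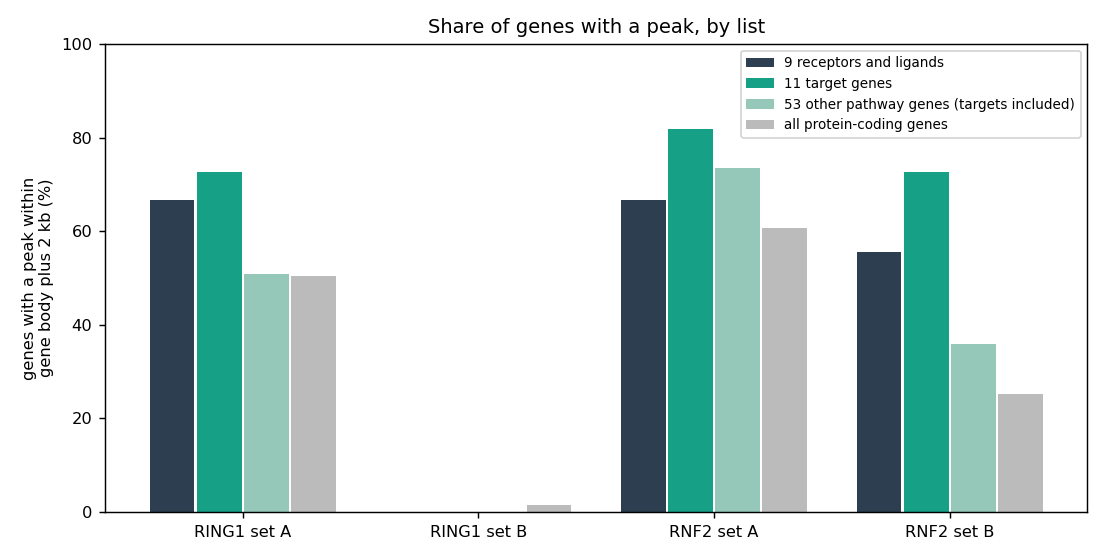
Share of genes (%, vertical axis) with a peak within the gene body plus 2 kb, for each of the 4 peak lists (horizontal axis): the 9 receptors and ligands, the 11 target genes, the 53 other pathway genes (targets included) and all 20037 protein-coding genes. In RNF2 set B the bar of the receptors and ligands stands at 55.6% and that of all genes at 25.2%, and in RING1 set B no receptor or ligand had a peak.

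By role, the ligands were listed more often than the receptors, in a count too small to compare. Among the 4 receptors, NOTCH1 and NOTCH3 had peaks of both proteins in set A (50%, against 47.5% of all genes). NOTCH1 alone had RNF2 in set B (25%, against 25.2%), and both receptor shares lay near those of all genes. Among the 5 ligands, all but DLL1 were called by both antibodies in set A (80%, against 47.5%). The same 4 were called again by RNF2 in set B (80%, against 25.2%). Longer genes offer longer windows. All genes were split by length into 4 classes of about equal size, the longest being genes of 65135 bp or more. From the shortest to the longest, the RNF2 set B share was 22.2%, 23.8%, 22.4% and 32.6%. In set A the share rose from 38.7% to 62.9% for RING1 and from 43.8% to 76.4% for RNF2. The median length was 29225 bp for the receptors and ligands and 24115 bp for all protein-coding genes. The class that holds 29225 bp had shares of 22.4% (RNF2 set B), 51.7% (RING1 set A) and 65.5% (RNF2 set A).

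The promoters of the members show the sequence these peaks lay on. RefSeq promoter windows (GRCh38.p14, 250 bases before the gene start and 50 after it) matched 7 of the 9 genes, and DLL1 and DLL3 are named only. The 4 windows printed here contrast 2 promoters under peaks of 3 lists, NOTCH1 and DLL4, with 2 promoters of genes with no listed peak, NOTCH2 and NOTCH4. They read 5′ to 3′ and each CG dinucleotide is in capitals.
NOTCH1, chr9:136545999-136546298, minus strand: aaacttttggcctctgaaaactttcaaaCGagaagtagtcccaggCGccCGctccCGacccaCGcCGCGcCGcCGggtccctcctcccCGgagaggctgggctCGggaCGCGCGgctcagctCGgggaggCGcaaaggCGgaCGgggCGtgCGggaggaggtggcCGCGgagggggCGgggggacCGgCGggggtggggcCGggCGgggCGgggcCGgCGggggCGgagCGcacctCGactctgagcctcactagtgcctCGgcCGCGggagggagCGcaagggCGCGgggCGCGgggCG
DLL4, chr15:40929090-40929389, plus strand: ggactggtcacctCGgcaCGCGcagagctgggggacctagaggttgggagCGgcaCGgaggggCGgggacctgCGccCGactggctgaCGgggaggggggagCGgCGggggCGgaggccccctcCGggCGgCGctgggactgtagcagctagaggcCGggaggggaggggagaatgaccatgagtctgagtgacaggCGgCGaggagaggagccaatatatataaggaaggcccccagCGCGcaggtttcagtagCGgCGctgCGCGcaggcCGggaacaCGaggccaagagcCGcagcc
NOTCH2, chr1:120069613-120069912, minus strand: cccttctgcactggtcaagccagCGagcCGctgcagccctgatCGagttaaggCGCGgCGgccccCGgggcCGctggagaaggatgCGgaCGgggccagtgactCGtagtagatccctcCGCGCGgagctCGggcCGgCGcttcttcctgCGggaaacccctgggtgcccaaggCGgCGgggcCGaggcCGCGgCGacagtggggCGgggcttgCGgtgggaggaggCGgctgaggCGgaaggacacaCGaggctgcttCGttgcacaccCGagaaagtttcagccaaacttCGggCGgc
NOTCH4, chr6:32224018-32224317, minus strand: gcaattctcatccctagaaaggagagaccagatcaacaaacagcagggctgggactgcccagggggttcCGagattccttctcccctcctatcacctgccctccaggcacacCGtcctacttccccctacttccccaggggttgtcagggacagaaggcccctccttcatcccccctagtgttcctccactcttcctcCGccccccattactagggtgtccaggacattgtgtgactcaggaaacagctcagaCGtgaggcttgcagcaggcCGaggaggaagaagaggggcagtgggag

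The NOTCH1 window held 42 CG dinucleotides, more than or as many as in 93.4% of 15842 promoters of protein-coding genes. The DLL4 window held 27 and the NOTCH2 window 33, whereas the NOTCH4 window held only 5. The windows not printed held 37 (NOTCH3), 24 (JAG1) and 46 (JAG2), and the median over all promoters was 22. RNF2 set A peaks covered the windows of NOTCH1, NOTCH3, DLL4, JAG1 and JAG2, 5 of 7, against 51.5% of all promoters. RING1 set A peaks covered NOTCH1, DLL4 and JAG1 (3 of 7, against 38.8%), RNF2 set B peaks covered NOTCH1, DLL4 and JAG2 (3 of 7, against 16.1%), and RING1 set B covered none (0.518%). Among all promoters, those with 20 or more CG were covered by RNF2 set A in 74.5% of cases and those with fewer than 10 in 5.91%. RING1 set A covered 57.49% of the promoters with 20 or more CG, and RNF2 set B covered 24.04% of them. Every member window except that of NOTCH4 holds 20 or more CG, so these shares are a closer comparison than those of all promoters. All 5 covered member promoters have more than 20 CG, NOTCH4 lies in the CG-poor class, and NOTCH2 is a CG-rich promoter with no listed peak. NOTCH4 also lies in a stretch of 4.05 Mb with 135 protein-coding genes and no listed peak. The lack of a peak at NOTCH2 and NOTCH4 is uncertain, as set out below, and a link to CG content was not tested. The letters TGGGAA, the core of the RBPJ motif, searched on both strands (TTCCCA on the other), were in none of the 7 windows and in 22.7% of all promoters. That describes these 300 bases alone.

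**Figure D2:**
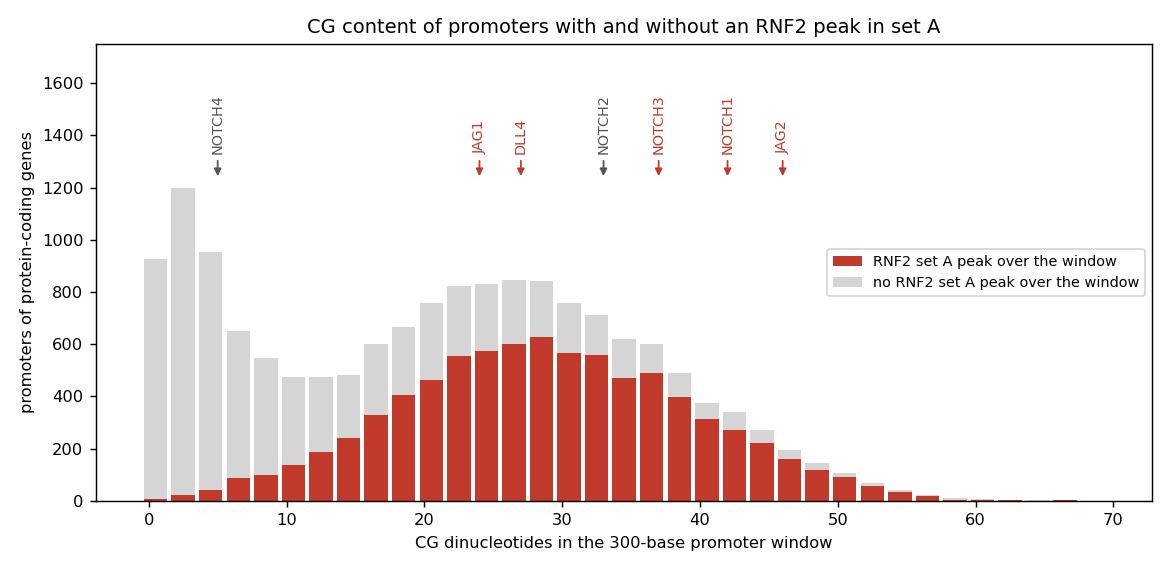
Number of promoters of protein-coding genes (vertical axis) by the count of CG dinucleotides in the 300-base window (horizontal axis, bins of 2), split by whether an RNF2 set A peak covered the window. Arrows mark the 7 receptor and ligand promoters in the colour of their own class: NOTCH4 at 5 CG and NOTCH2 at 33 CG have no RNF2 peak, and the other 5 lie between 24 and 46 CG.

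NOTCH1, the receptor most studied in neural progenitors, lies on chromosome 9 (136494433 to 136546048, hg38, minus strand) and carried 1 broad peak over its start in 3 lists. The RING1 set A peak was 2971 bp wide and ran from -783 to 2187 bp relative to the gene start, with the authors' fold over background at 3.71. The RNF2 set A peak there was 3000 bp wide, from -761 to 2238 bp, with a fold of 4.44, and the RNF2 set B peak was 2044 bp wide, from -923 to 1120 bp, with a fold of 3.76. The 3 peaks thus lay on the same stretch. Because a fold is a value within its own list, it was also given as a percentile of that list's peaks: 33.3 for RING1 set A, 65.0 for RNF2 set A and 55.2 for RNF2 set B. The peaks were wide for their lists and ordinary in height, with the RING1 peak at the 93.4th percentile of width. RNF2 alone had further narrow peaks inside the gene. In set A a peak of 427 bp started at 3391 bp, and in set B peaks of 551 and 504 bp started at 16429 and 33892 bp, none of which recurred in the other set.

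NOTCH3, a receptor also known from the muscle cells of blood vessels, lies on chromosome 19 (15159038 to 15200995, minus strand) and was the 1 member with both proteins in set A and no peak in set B. RING1 set A had 4 peaks, of which the one nearest the start ran from 432 to 1529 bp inside the gene with a fold of 4.91, and the widest, 2835 bp, from 2956 to 5790 bp with a fold of 4.17. RNF2 set A had 3 peaks, with the one over the start running from -151 to 1986 bp (2138 bp, fold 3.87). The order of the proteins was thus opposite to NOTCH1 within their lists, since the strongest RING1 peak stood at the 81.4th percentile and the strongest RNF2 peak at the 42.4th. The nearest RNF2 set B peak lay 22617 bp from the gene.

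NOTCH2 and NOTCH4 had no listed peak, and none lay within 100 kb. NOTCH2, a receptor expressed in progenitors of the cortex, lies on chromosome 1 (119911553 to 120069662, minus strand), and the nearest peak of any list was 107 kb away, a distance that 12.8% of all genes reach or exceed. The stretch without peaks held 4 protein-coding genes, NOTCH2 included. The human genome holds partial, near-identical copies of NOTCH2, and NOTCH2NLA, NOTCH2NLB, NOTCH2NLC and NOTCH2NLR had no listed peak either. No source used here says how reads that match several copies were treated, so the NOTCH2 result is uncertain. NOTCH4, a receptor known mainly from blood vessels, lies on chromosome 6 (32194843 to 32224067, minus strand) inside a stretch of 4.05 Mb (28475455 to 32521618) with no peak in any list. The nearest was 298 kb away, and 5.85% of all genes lay as far or farther. That stretch holds 135 protein-coding genes, and no other stretch between listed peaks holds more than 55 genes. The absence at NOTCH4 is therefore shared with its whole neighbourhood, and whether peaks could be called there was not tested. It could not be told whether the full lists hold peaks in this stretch beyond the rows analysed here, so the lack of a peak at NOTCH4 is uncertain.

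DLL3, a ligand that acts inside the cell and dampens Notch signalling, had the strongest peaks and the largest covered share of the 9 genes in set A. It lies on chromosome 19 (39498947 to 39508469), and its positions are counted from the low-coordinate end. RNF2 set A had a peak of 6002 bp from -1195 to 4806 bp with a fold of 5.22, and a second of 3124 bp from 6286 to 9409 bp with a fold of 7.80. Together they covered 67.5% of the gene and its 2 kb on each side. The second peak stood at the 96.9th percentile of fold and had a −log10 q of 10.7. RING1 set A had 3 peaks on the same ground, with folds of 5.09 at the low-coordinate end, 4.86 inside the gene and 6.30 over the high-coordinate end. RNF2 set B had 2 narrower peaks, 1102 bp at the low-coordinate end (fold 4.49) and 1183 bp near the other (fold 4.14). Peaks thus lay at or near both ends in 3 lists, but only the RING1 set A peak covered the high-coordinate end itself. Set B gave the stronger peak to the low-coordinate end and both lists of set A gave it to the other.

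DLL4, a ligand of vessel sprouting that is also expressed in neurogenic cells, had broad peaks that reached upstream of its start in 3 lists. It lies on chromosome 15 (40929340 to 40939073, plus strand). RING1 set A had a peak of 5628 bp from -3466 to 2161 bp with a fold of 5.32, and RNF2 set A a peak of 5274 bp from -3911 to 1362 bp with a fold of 6.66. RNF2 set B split the same ground into 2 peaks, from -3422 to -1731 bp (fold 4.87) and from -405 to 1762 bp (fold 5.18). DLL4 was the member with the highest RNF2 set B fold, at the 92.6th percentile of that list, and stood at the 87.7th percentile for RING1 and the 94.1st for RNF2 in set A. The 2 kb limit fell within a cluster of peaks beyond the far end of DLL4. The RING1 set A peak there, with a fold of 4.76, began 1922 bp from the gene and was counted, whereas the RNF2 peaks of set A (fold 4.80, 2107 bp away) and set B (fold 3.27, 2188 bp away) were not. A RING1 set A peak with a fold of 3.35, 2811 bp beyond the end of JAG2, also lay outside.

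JAG1, a Jagged ligand of progenitor zones and of many other tissues, lies on chromosome 20 (10637684 to 10673999, minus strand). RING1 set A had a peak of 3633 bp over its start, from -1082 to 2550 bp, with a fold of 3.81, and RNF2 set A one of 3313 bp, from -389 to 2923 bp, with a fold of 4.70. The RNF2 set B peak, 2159 bp with a fold of 3.62, began 159 bp inside the gene and so did not cover the start itself. A second site near the far end of JAG1 was called in set A by both antibodies, as peaks of 885 bp for RING1 (fold 3.54) and 1022 bp for RNF2 (fold 4.21), and RNF2 set A had one more peak, of 597 bp, over the gene end. Nothing was called at these sites in set B. The strongest peaks stood at percentiles of 39.9 for RING1 set A, 72.2 for RNF2 set A and 44.4 for RNF2 set B.

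JAG2, the other Jagged ligand, lies on chromosome 14 (105140995 to 105168776, minus strand) and had the shortest RING1 coverage among the members with a peak. RING1 set A had a peak of 699 bp from 479 to 1177 bp inside the gene with a fold of 4.23, and another of 309 bp from 12027 bp with a fold of 3.91. RNF2 had a peak over the start in both sets, of 2353 bp in set A (from -841 to 1511 bp, fold 4.65) and 1508 bp in set B (from -455 to 1052 bp, fold 3.52). RNF2 set B had another of 364 bp inside the gene, from 3335 to 3698 bp, with a fold of 3.33. The RNF2 set B fold stood at the 35.6th percentile of its list, the lowest among the 5 members with a peak in that list. RING1 peaks covered 1008 bp around JAG2, against 2353 bp for RNF2 of the same set. JAG2 has the promoter with the most CG dinucleotides of the 7, so the order of CG content and the order of fold differ within the family.

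DLL1, the Delta ligand of differentiating neural cells, had no listed peak at its gene on chromosome 6 (170282206 to 170291078). The nearest peaks were 201 kb away in RNF2 set A, 238 kb in RNF2 set B and 263 kb in RING1 set A. The stretch without peaks, 472 kb long, held 3 protein-coding genes, and 8.17% of all genes lay as far or farther from any listed peak. No source used here gives the depth of the libraries, and a protein may be present where no peak was called.

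**Figure D3:**
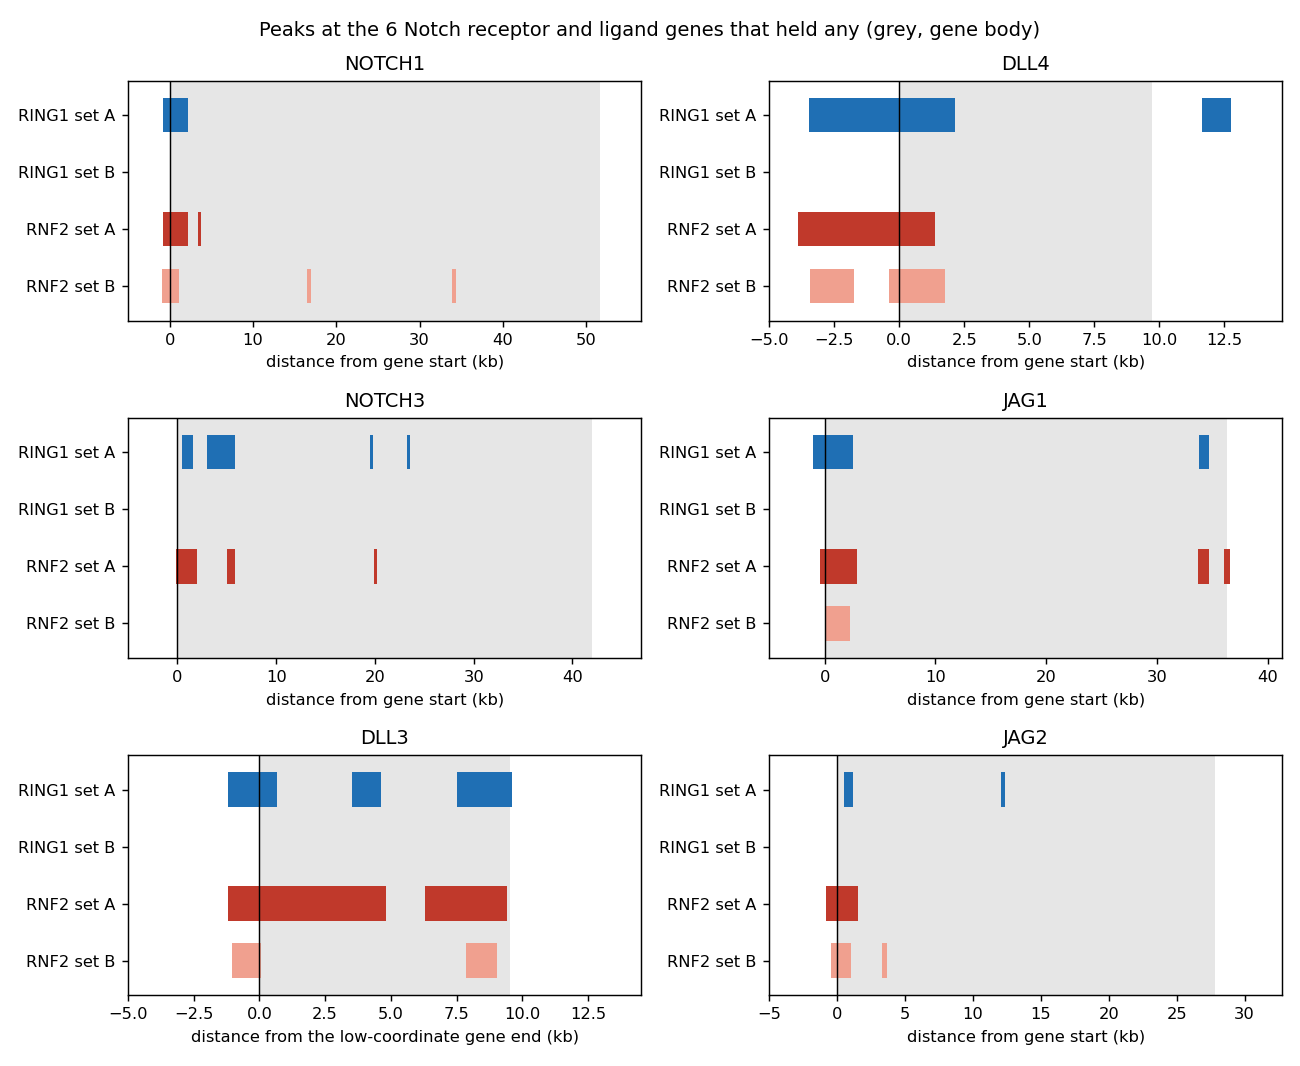
Peaks of each list (rows) along the 6 genes that held any, with distance in kb from the gene start (DLL3: from its low-coordinate end) on the horizontal axis and the gene body in grey. Bars cluster at the start of every gene, DLL3 has a second cluster near its other end, and the RING1 set B row is empty throughout.

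Across the 6 genes, DLL3 and DLL4 had the highest peaks. In RING1 set A the highest fold per gene was 6.30 at DLL3, 5.32 at DLL4, 4.91 at NOTCH3, 4.23 at JAG2, 3.81 at JAG1 and 3.71 at NOTCH1. In RNF2 set A the order was DLL3 at 7.80, DLL4 at 6.66, JAG1 at 4.70, JAG2 at 4.65, NOTCH1 at 4.44 and NOTCH3 at 3.87, and in RNF2 set B it was DLL4 at 5.18, DLL3 at 4.49, NOTCH1 at 3.76, JAG1 at 3.62 and JAG2 at 3.52. DLL3 and DLL4 thus led in all 3, and the order of the rest changed between lists. Each value is 1 peak of 1 list with no error of its own, so whether neighbours in these orders differ was not tested. The medians of these values were 4.57 (RING1 set A), 4.67 (RNF2 set A) and 3.76 (RNF2 set B), against 4.20, 4.35 and 3.81 for the other genes with a peak. The members' median height was therefore close to that of other genes. The median total length covered by all peaks of a gene inside its window was larger for the members, at 4358.5, 3395 and 2285 bp, against 889, 1287 and 906 bp. The median number of peaks per gene was 2 for these members and 1 for the other genes in each of the 3 lists. These members had passed the peak call, so the values describe them and support nothing further.

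**Figure D4:**
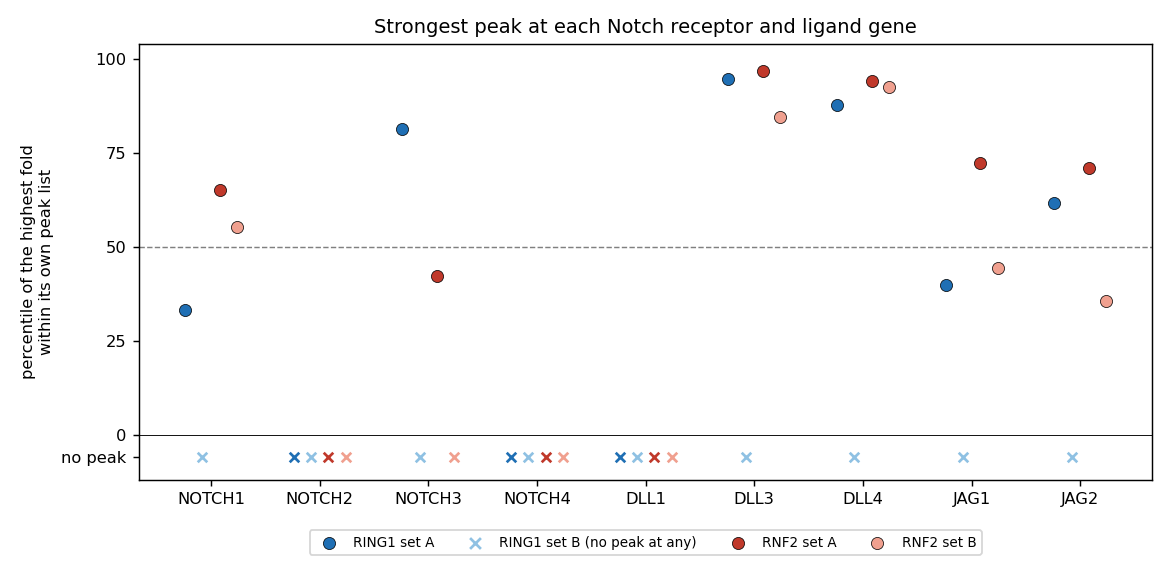
Percentile of the highest fold at each gene within its own peak list (vertical axis) for the 9 receptors and ligands (horizontal axis), 1 point per list and a cross where the list has no peak. DLL3 and DLL4 lie above the 84th percentile in 3 lists, and NOTCH2, NOTCH4 and DLL1 have crosses in all 4.

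RING1 and RNF2 lay on the same bases of these genes to a large part. The 14 RING1 set A peaks covered 22240 bp of the windows and the 12 RNF2 set A peaks 26495 bp, and 17534 bp were shared, which is 78.8% of the RING1 and 66.2% of the RNF2 bases. As a share of the RING1 bases, the shared part was largest at NOTCH1 (99.3%, and 86.1% of its RNF2 bases) and smallest at NOTCH3 (42.0%, and 57.0% of its RNF2 bases). By peaks, 11 of the 14 RING1 peaks met an RNF2 peak of set A (78.6%), near the 82.1% of all RING1 set A peaks. Between the sets, 7 of the 10 RNF2 set B peaks met an RNF2 set A peak (70.0%), near the 76.4% of the whole list, and 83.3% of the set B bases lay within set A peaks. In the other direction, 6 of the 12 RNF2 set A peaks (50%) met an RNF2 set B peak, against 26.2% of the whole list. Of the members' RNF2 set A bases, 37.3% were shared. The 3 RNF2 set B peaks that met no RNF2 set A peak were narrow peaks inside NOTCH1 and JAG2. The RNF2 set A peaks that met none of set B were all those of NOTCH3, the narrow peak inside NOTCH1 and those near the far end of JAG1. No source used here says whether the lists of a set were called against 1 control. The authors' consolidated file has 7 regions at 5 members, NOTCH1, DLL3, DLL4, JAG1 and JAG2, and a region at 22.8% of all genes. Each of its 4255 regions equals, within 1 bp, a union of touching peaks of the 4 lists with RNF2 set A among them, and the members' regions range in width from 1664 bp, downstream of DLL4, to 6074 bp, over its start.

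The genes nearest to each of the 5 members with peaks in 3 lists were found by Euclidean distance over the 4 within-list percentiles of the highest fold, with 0 for no peak. DLL3 (94.7, 0, 96.9 and 84.6 in RING1 set A, RING1 set B, RNF2 set A and RNF2 set B) was nearest to AP1S1 (distance 1.07 percentile points), ACTR5 (1.21) and PRDM12 (1.24). DLL4 was nearest to EML3 and MTA2 (1.80 each, with equal values) and to SOX12, a SOX factor gene (1.93). NOTCH1 was nearest to SLC4A11 (2.48), SHISA2 (4.04) and TMEM62 (4.31). JAG1 was nearest to ASB18 (3.13), ADCY5 (3.81) and TMEM94 (3.87), and JAG2 to PRRC2B (2.73), FER (2.79) and PKMYT1 (3.43). The 5 members counted as 0 in RING1 set B, so the distance itself favoured genes with no peak there, and none of these genes had one.

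The other genes of the pathway had a RING1 set A share close to that of all genes and RNF2 shares above it, and among these groups the target genes had the highest shares in RING1 set A and RNF2 set B, at 72.7% each, below the 80% of the 5 ligands. These are descriptions with no test. Of 53 genes, RING1 set A had a peak at 27 (50.9%), RNF2 set A at 39 (73.6%) and RNF2 set B at 19 (35.8%), against 50.5%, 60.7% and 25.2% of all genes. RING1 set B had a peak at none of the 53, as at none of the receptors and ligands. Target genes made up 8 of the 19 with RNF2 set B. In that list the other classes ran from 0% (4 NOTCH2 copies) to 40% (5 non-canonical ligands). The 11 listed target genes are the HES and HEY genes and NRARP, and whether each responds to Notch was not tested. Of these 11, 8 had RING1 set A, 9 RNF2 set A and 8 RNF2 set B. HEY2, a bHLH repressor, had folds of 7.75, 9.26 and 5.28 in these lists, HES1, the oscillating repressor of progenitors, had 5.98, 7.96 and 3.67, and HES6 had 5.19, 5.88 and 6.60. NRARP, a feedback inhibitor of the receptor complex, had 5.00, 6.30 and 4.59, and HES3, HES4, HES7 and HEY1 also had peaks in 3 lists. HES5 and HES2 had none listed.

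All 8 genes of the nuclear complex and its corepressors had RNF2 set A, against 60.7% of all genes, and 3 (37.5%, against 25.2%) had RNF2 set B, among them RBPJ, the DNA-binding partner of the receptors (RING1 set A 4.19, RNF2 set A 6.06, RNF2 set B 3.53), and MAML3, a Mastermind coactivator (4.91, 7.24 and 3.72). Of the 8 protease genes, 7 (87.5%, against 60.7% of all genes) had RNF2 set A and 1 (12.5%, against 25.2% of all genes) had RNF2 set B. It was PSENEN, a gamma-secretase subunit (5.24, 6.49 and 3.76). Of the 5 glycosyltransferase genes, LFNG, the Fringe enzyme that sets which ligands a receptor answers to, had peaks in 3 lists (4.26, 5.18 and 3.73). That is 20%, against 20.4% of all genes. POGLUT1 had peaks in 2 lists, and MFNG, RFNG and POFUT1 in none (60%, against 35.3%). Among the 12 endocytic and modulator genes, NUMBL, MIB1 and DTX3 had peaks in 3 lists (25%, near the 20.4% of all genes). NUMBL had folds of 7.43, 6.83 and 3.63. MIB1, the ligase that drives ligand uptake, had 3.77, 3.66 and 3.85, and DTX3 had 5.61, 5.71 and 5.08. All 5 non-canonical ligand genes had RNF2 set A, against 60.7% of all genes, and 2 (40%) had RING1 set A, against 50.5%. Of these ligand genes, DNER had peaks in 3 lists (4.92, 4.31 and 3.56). In all, 17 of the 53 genes (32.1%) had RING1 set A and both RNF2 lists without RING1 set B, against 20.4% of all genes. Of these 17, 8 were target genes. No listed peak was found at 14 of the 53 (26.4%), against 35.3% of all genes.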

How the data were processed

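Libraries were prepared with a CUT&RUN kit, per the labels' protocols. Tools named in the submitters' processing notes, with no role, are MACS2 2.2.9.1, deepTools 3.5.2, bedtools 2.30.0, Picard 2.8.1, SAMtools 1.9 and BWA 0.7.17, and the build is hg38. The deposited lists hold broad peaks, 1 list per antibody and set. In them the authors' fold is a ratio of signal over background per peak, and the deposited significance is a −log10 q value. The consolidated file gives coordinates alone, and depth and control are not given in the sources used here.

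On the autosomes and sex chromosomes the lists held 12891 and 659 peaks for RING1 and 16263 and 5901 for RNF2 in sets A and B. A peak was assigned to a gene when it met the RefSeq gene body (GRCh38.p14) or 2 kb around it by 1 bp. All 9 members and 53 pathway genes matched. Gene starts come from the strand of RefSeq promoters. Ranks are within a list. No test was run, since lists without counts allow none per gene and the members and pathway lists were chosen with earlier results of these data known. The genes named were the 9 members, pathway genes with peaks in 3 lists, any other gene under a member's peak (there was none) and the nearest 3 genes per member with most lists. Not every gene under this rule is reported here. Alternatives were other windows, a limit on −log10 q of 5 or more, lists kept to 659 peaks, a 50% overlap, merging within 1 kb and each set left out. The assignment step, tested on simulated data over 20037 genes, returned all 200 planted genes. Scripts ran under Python 3.11.15 with matplotlib 3.10.9, pandas 2.3.3 and numpy 2.4.6.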

Additional observations from a re-analysis of the deposited data

How the results depend on the processing

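The counts of members with a peak were the same with no added window, with 5 kb added, with 2 kb around the gene start (both ends for DLL1 and DLL3), with an overlap of 50% of the shorter and with peaks within 1 kb merged. Limits on significance lowered them. At a −log10 q of at least 5, RING1 set A kept 1 member (DLL3), RNF2 set A 2 (DLL3 and DLL4), RNF2 set B 0 and RNF2 in both sets 0, and the other pathway genes fell to 8, 16 and 2 in RING1 set A, RNF2 set A and RNF2 set B. With each list cut to its 659 most significant peaks, RING1 set A had 0 members, RNF2 set A 1 (DLL3), RNF2 set B 1 (DLL4) and both sets 0, with 2, 2 and 3 other pathway genes. At these limits 8.74%, 17.1% and 2.70%, and 3.94%, 4.15% and 3.78%, of all genes kept a peak in the same 3 lists. Leaving out 1 set in turn gave 0 to 6 members with RING1, 5 to 6 with RNF2 and 0 to 6 with both, so the count of members in all 4 lists rests on RING1 of set B. Of 63 counts of lists per member under the 7 alternatives that keep both sets, 51 were unchanged and 12, all at the 2 limits on significance, were lower. Most peaks at these genes lie at modest significance, and the lack of depth per library limits what a missing peak can say. No paired analysis was possible because the results come from no test.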
